A study of Drosophila melanogaster with 15 samples.

Results

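The transcripts of 8 genes that make and load small RNAs were followed in cells of the Drosophila melanogaster testis, sorted with a driver of the somatic cyst lineage. The genes were Dcr-2, AGO2 and r2d2 of the siRNA pathway, Dcr-1, AGO1, loqs, pasha and drosha of the microRNA pathway, and they were chosen by symbol. All 8 were found among the 17408 genes of the deposited count table, and all 8 were among the 10056 genes with enough reads to be tested. Cells in which tj-Gal4 drives GFP, a driver of the somatic cyst lineage, were isolated by FACS from adult testes, and polyadenylated RNA was sequenced from 15 libraries in 5 groups of 3. Per the labels, every sample pooled 50 to 100 flies, and the stated purpose was to compare cyst stem cells with raised or lowered Chinmo, raised JAK/STAT signalling or raised Hedgehog signalling with controls.

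All groups shared the w/Y background, the tj-Gal4 driver and UAS-GFPnls. WT carried a second UAS-GFPnls and no other transgene. Chinmo carried UAS-5'UTR-chinmo-3'UTR with tub-gal80TS, a temperature-sensitive inhibitor of Gal4, and Upd carried UAS-Upd, which encodes a JAK/STAT ligand, with UAS-GFP. Ci carried UAS-Ci5Ncm5 and UAS-Ci5m30, 2 forms of the Hedgehog pathway transcription factor Ci. The group labelled chinmo RNAi carried UAS-chinmoRNAi (HMS00036) together with UAS-dcr2, a transgene for one of the genes described here. Flies were 10 days past eclosion, except in the group labelled chinmo RNAi, where they were 2 or 3 days old. Genotype, age and UAS-dcr2 therefore cannot be told apart in that group.

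In the fly, long double-stranded RNA is cut into siRNAs by the Dicer enzyme Dcr-2, and Dcr-2 with its double-stranded RNA-binding partner R2D2 loads them into the Argonaute AGO2, which slices matching RNAs. MicroRNA precursors are cut out of primary transcripts in the nucleus by the RNase III enzyme Drosha with its partner Pasha, cut again in the cytoplasm by Dcr-1 with Loqs, and loaded mostly into AGO1. An isoform of Loqs also works with Dcr-2, so the loqs gene serves both pathways. In the fly testis the siRNA pathway processes hairpin RNAs in the germ line, and UAS-dcr2 is a common addition to RNAi crosses because extra Dcr-2 strengthens the response to long hairpins. The libraries counted messenger RNA, so they report on the machinery and hold no measurement of small RNAs.

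Reads assigned to genes numbered 1143049 to 2943120 per library. Chinmo 3 had the fewest, with 4983 genes detected, and chinmo RNAi 2 had 8109, against 9355 to 13229 in the other libraries. In Chinmo 3, 29.4% of assigned reads fell on ribosomal RNA genes, the highest share. Against WT, upd1 rose in Upd (log2 change 4.84 ± 0.96 SE, adjusted p = 0.000453, edgeR) and ci rose in Ci (3.57 ± 0.54, adjusted p = 0.00874). The ci call was lost without Ci 1 (adjusted p = 0.195), WT 1 (0.101), WT 2 (0.132) or WT 3 (0.294). Without any 1 WT library, 0 of all tested genes were called in Chinmo against WT. The chinmo gene rose in Chinmo (2.53 ± 0.54, adjusted p = 0.027), a call that was lost without Chinmo 3 (adjusted p = 0.0918) or without any 1 WT library (0.0921 to 0.165). In the libraries labelled chinmo RNAi it stood at 117 ± 48.3 CPM (CPM, counts scaled to library size with TMM factors, mean and SD, n = 3) against 71.9 ± 2.87 CPM in WT, so the labelled knockdown was not visible in its transcript. Early germ line markers summed to 1413 to 1632 CPM in Upd against 99.5 to 112.9 CPM in WT, and spermatocyte and spermatid markers to 211 to 317 CPM in Upd against 5738 to 10500 CPM in WT. Summed cyst stem cell markers ranged from 1850 to 2377 CPM over the Upd libraries and from 101 to 144 CPM over WT. The gene tj itself, a marker of early cyst lineage cells, reached 222 ± 23.2 CPM across the Upd libraries and 16.9, 1.59 and 0.475 CPM in the WT libraries, while markers of differentiating cyst cells summed to 2508 to 3317 CPM in WT and 236 to 297 CPM in Upd. The part of these markers in the Upd results was not tested. In Ci, spermatocyte and spermatid markers summed to 4772 to 8628 CPM. The sorted libraries thus held transcripts of germ line markers, and member levels cannot be assigned to somatic cells alone. In bulk samples, fewer cells of a type and less RNA per cell cannot be told apart. Nothing in the labels ties the 3 libraries of a group to separate fly cultures, so p-values speak to the spread among these libraries alone, which may be technical.

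The 8 transcripts spanned a wide range of abundance in WT. Per kilobase of exon, Dcr-2 stood highest at 46.1 ± 13.0 CPM per kb (SD, n = 3), followed by AGO2 at 18.3 and AGO1 at 11.7 CPM per kb. loqs stood at 9.84, r2d2 at 6.45, Dcr-1 at 5.73 and drosha at 4.37 CPM per kb, and pasha was lowest at 1.65 CPM per kb. Dcr-2 lay at the 95.3rd percentile of mean level among the tested genes, without length correction, AGO1 at the 90.6th and AGO2 at the 88.6th, whereas loqs lay at the 33.2nd. The enzyme that cuts siRNAs was thus the most abundant transcript of the set per length in WT, Upd, Ci and the group labelled chinmo RNAi, and in Chinmo only AGO2 exceeded it, through 1 library. loqs, r2d2, pasha and drosha rested on few reads, with 0 to 143 counts in any library, and a limit of 3 counts corresponds to 4.99 CPM in Chinmo 3 and 1.93 CPM in chinmo RNAi 2.

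**Figure D1:**
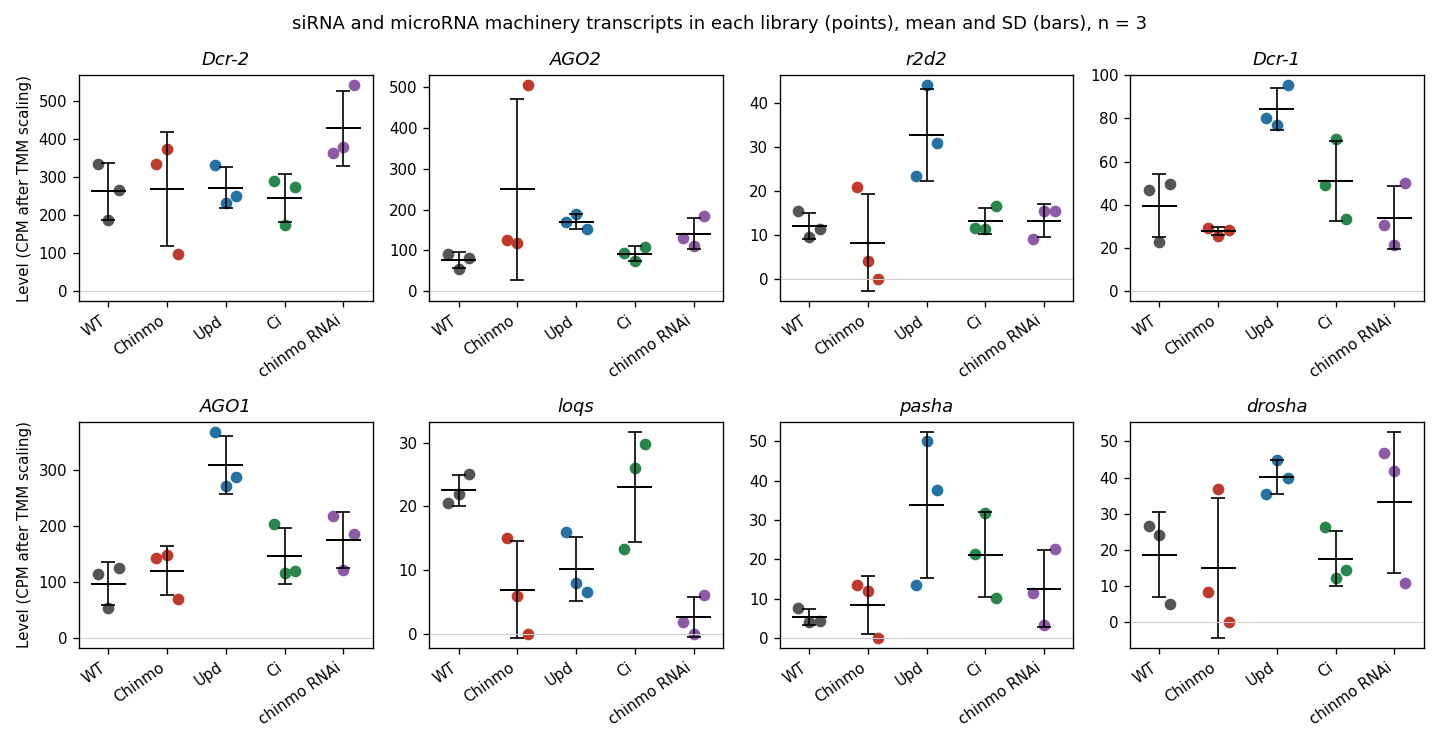
Level of each of the 8 transcripts (CPM after TMM scaling, linear axis from 0, a separate scale per gene) in every library, by group. Points are libraries, bars the mean and SD of 3. The 3 Upd libraries lie above all WT libraries for AGO2, r2d2, Dcr-1, AGO1, pasha and drosha and below them for loqs, while the highest Dcr-2 mean is in the group labelled chinmo RNAi.

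Dcr-2 (chromosome 2R, 17574979 to 17581525, minus strand, BDGP6.54) had similar means in 4 groups, 246 to 272 CPM, and its highest mean where the dcr2 transgene was present. WT libraries 1 to 3 held 334, 186 and 267 CPM. The libraries labelled chinmo RNAi held 362, 379 and 541 CPM. All 3 of the latter exceeded every WT, Upd and Ci library, and the group mean was 428 ± 98.8 CPM against 262 ± 74.0 CPM in WT. The log2 change against WT was 0.71 ± 0.43 (95% interval -0.19 to 1.60, adjusted p = 0.341, edgeR), so the difference did not pass the threshold. Reads from UAS-dcr2 and from the endogenous gene share the Dcr-2 row and cannot be told apart. Chinmo libraries held 334, 373 and 98.0 CPM, Upd libraries 332, 232 and 250 CPM, and Ci libraries 289, 173 and 275 CPM. These 3 groups overlapped WT. Their log2 changes were 0.04 (95% interval -0.85 to 0.93) in Chinmo, 0.05 (-0.84 to 0.94) in Upd and -0.09 (-0.98 to 0.79) in Ci. Chinmo 3 was the lowest of the 15 libraries for Dcr-2.

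AGO2 (chromosome 3L, 15554113 to 15561042, plus strand), the Argonaute that slices siRNA targets, was lowest in WT. WT libraries held 91.9, 53.7 and 81.7 CPM and Upd libraries 169, 189 and 152 CPM. The Upd libraries all exceeded the WT libraries, with a log2 change of 1.17 ± 0.51 (95% interval 0.10 to 2.23, adjusted p = 0.0835, edgeR). In Chinmo the libraries held 126, 118 and 505 CPM, where the third library stood apart from the others. The log2 change of Chinmo against WT was 1.71 ± 0.52 (adjusted p = 0.0681) and became 0.43 (adjusted p = 0.486) without Chinmo 3, so 1 library set its size. That library also had the lowest depth and the lowest mean log2 CPM of germline markers (2.49). It was not lowest by summed CPM. Early germ line markers summed to 59.8 CPM there and 38.6 CPM in chinmo RNAi 2. Spermatocyte and spermatid markers summed to 2521 CPM there and 211 to 317 CPM in Upd. In Chinmo 3, 9 of 12 early and 12 of 24 later germ line markers had no counts. The part of depth and of these markers in its AGO2 value was not tested. In the libraries labelled chinmo RNAi AGO2 stood at 130, 110.5 and 184 CPM, again all above WT (log2 change 0.90, adjusted p = 0.302). Ci libraries held 94.0, 73.4 and 109 CPM and overlapped WT. No AGO2 comparison passed the threshold with edgeR. DESeq2 called the difference in Chinmo (adjusted p = 0.0346) and limma-voom the one in Upd.

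r2d2 (chromosome 2L, 7800147 to 7802098, plus strand), the loading partner of Dcr-2, was a low transcript. Its levels were 15.4, 9.55 and 11.4 CPM in WT and 23.6, 44.2 and 30.9 CPM in Upd. The Upd libraries all lay above the WT libraries, at a log2 change of 1.44 ± 0.91 (adjusted p = 0.235, edgeR). Chinmo libraries held 20.8, 3.95 and 0 CPM, from 25, 6 and 0 counts, so that group ran from above WT to no read. Ci libraries held 11.6, 11.5 and 16.6 CPM, and those labelled chinmo RNAi 8.98, 15.4 and 15.5 CPM. Both overlapped WT, with log2 changes of 0.13 and 0.14. In the group with the dcr2 transgene, the 95% interval for r2d2 against WT ran from -1.74 to 2.01. On the annotation, 431 bases or 22.9% of r2d2 exon sequence is shared with Cdc14 on the opposite strand, and the strand setting of the counting is not given in the sources used here.

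drosha (chromosome 2R, 7932429 to 7936840, plus strand) and pasha (chromosome 3R, 31617977 to 31622217, plus strand) encode the nuclear enzyme and its partner. pasha stood at 7.70, 3.98 and 4.27 CPM in the WT libraries and at 13.6, 50.2 and 37.7 CPM in the Upd libraries. All Upd libraries exceeded all WT libraries, and pasha rose in Upd, with a log2 change of 2.66 ± 1.01 (95% interval 0.57 to 4.75, adjusted p = 0.0443, edgeR). The WT values rested on 15, 10 and 9 counts. The call was lost without Upd 2 (adjusted p = 0.153), Upd 3 (0.103), WT 1 (0.0759), WT 2 (0.145) or WT 3 (0.142). Ci libraries held 21.4, 31.8 and 10.2 CPM, all above WT, but the log2 change of 1.99 ± 0.99 had an adjusted p of 1. The Chinmo values for pasha were 13.3, 11.9 and 0 CPM, and those labelled chinmo RNAi held 11.5, 3.21 and 22.7 CPM. Both of those groups overlapped WT.

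drosha levels were 26.7, 24.3 and 5.22 CPM in WT and 35.5, 44.9 and 39.9 CPM in Upd. The Upd libraries lay above the WT libraries and were close to each other, whereas WT 3 stood far under WT 1 and WT 2, and the log2 change was 1.10 ± 0.96 (adjusted p = 0.401, edgeR). Chinmo libraries held 8.34, 36.9 and 0 CPM and those labelled chinmo RNAi 46.8, 41.8 and 10.8 CPM. Ci libraries held 26.3, 12.2 and 14.5 CPM, and all 3 of these groups overlapped WT. The enzyme and its partner did not keep a fixed ratio per length. drosha to pasha was 0.916 to 4.57 over the WT libraries, 0.671 to 1.96 over Upd and 0.286 to 1.06 over Ci.

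Dcr-1 (chromosome 3R, 22734007 to 22741091, minus strand), the Dicer of the microRNA pathway, was highest in Upd. WT libraries held 46.7, 22.7 and 49.4 CPM and Upd libraries 80.3, 77.2 and 95.4 CPM. The groups did not overlap, and the log2 change was 1.09 ± 0.62 (adjusted p = 0.186, edgeR; DESeq2 called it). Chinmo libraries were low and alike at 29.2, 25.7 and 28.2 CPM, inside the WT range, and all lay under the Upd libraries (Chinmo against Upd -1.60 ± 0.64, adjusted p = 0.0507). Ci libraries held 49.0, 70.4 and 33.3 CPM and those labelled chinmo RNAi 30.8, 21.2 and 50.0 CPM. Both overlapped WT.

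loqs (chromosome 2L, 13382652 to 13385671, plus strand), the partner of Dcr-1, had its highest means in WT and Ci. WT libraries held 20.5, 21.9 and 25.2 CPM and Ci libraries 13.4, 26.0 and 29.9 CPM. The libraries labelled chinmo RNAi held 1.92, 0 and 6.19 CPM, from 3, 0 and 12 counts. All of these were under every WT library, at a log2 change of -3.00 ± 1.11 (95% interval -5.29 to -0.70, adjusted p = 0.0995, edgeR). DESeq2 (adjusted p = 0.00388) and limma-voom (0.0164) called this difference. Upd libraries held 16.0, 8.07 and 6.55 CPM, again all under WT (log2 change -1.14 ± 1.01, adjusted p = 0.407), and Chinmo libraries 15.01, 5.93 and 0 CPM. The germline score, the mean log2 CPM of the early germ line and the spermatocyte and spermatid lists, was 4.81 to 5.86 over the WT and Ci libraries and 2.49 to 4.46 over the other 9. In Upd the lists that make up the score went opposite ways, since early germ line markers were above WT and spermatocyte and spermatid markers under it, so the score does not measure the germ line as a whole there. In the libraries labelled chinmo RNAi both lists summed to less than in WT, at 38.6 to 91.7 CPM for early germ line markers and 3272 to 4514 CPM for spermatocyte and spermatid markers. With the score as a covariate, the log2 change of loqs in that group became -0.06 (adjusted p = 0.995, edgeR). The score was 4.81 to 5.42 in WT and 2.91 to 3.95 in the libraries labelled chinmo RNAi, without overlap. The covariate therefore cannot separate germ line content from the group. With it, 2 genes of all tested were called in this comparison, against 680 in the reported fit. Other marker lists also stood apart from WT in these libraries. The 4 hub markers summed to 846 to 1342 CPM against 289 to 327 CPM in WT. Of these 1 of 4 was called higher (shg), where 6.76% of tested genes were called. The hub marker upd1 did not follow the sum, at 4.16 against 6.78 CPM (log2 change -0.68, adjusted p = 0.695, edgeR). The 5 hemocyte markers summed to 619 to 711 CPM against 217 to 409 CPM, mostly from crq (649 against 302 CPM), with He at 0 in both groups and 0 of 2 tested markers called. The part of the hub and hemocyte markers in the loqs values was not tested, and that of germ line content could not be told apart from the group. Counts cover the gene as a whole, so the Loqs isoforms were not separated, and 18.3% of its exon sequence is shared with asRNA:CR44599 on the opposite strand.

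**Figure D2:**
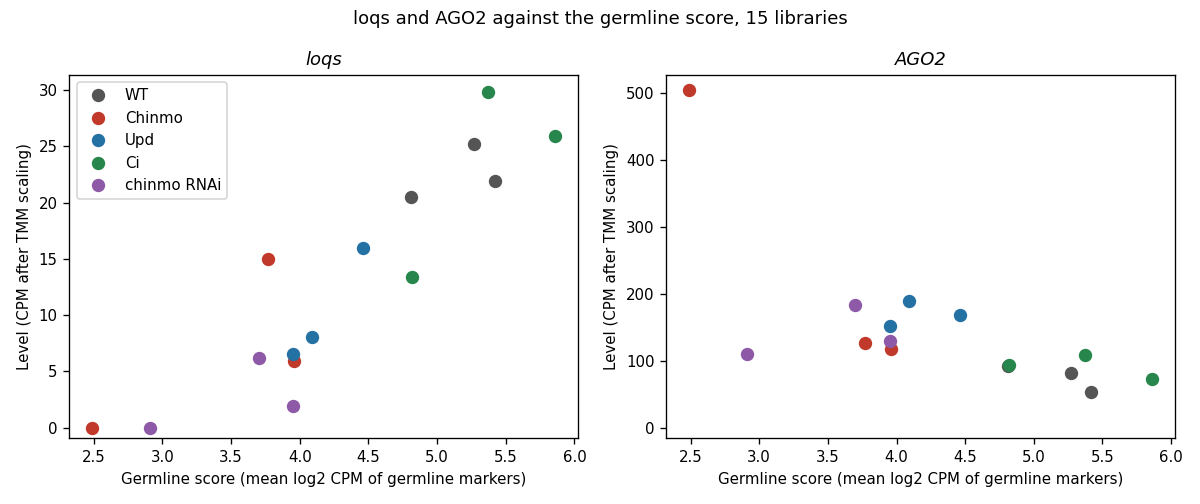
Level of loqs and of AGO2 (CPM after TMM scaling) against the germline score (mean log2 CPM of germline markers), 1 point per library, coloured by group. loqs is at 13.4 CPM or more in all WT and Ci libraries, whose scores are 4.81 or more, and AGO2 is highest in Chinmo 3, whose score of 2.49 is the lowest.

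Across the 15 libraries the log2 level of loqs had a Pearson r of 0.90 with the germline score and that of AGO2 an r of -0.77, as shown in the plot of both genes against the score. The other 6 members had r between -0.11 and 0.35. These are descriptions over libraries that share groups, scaling and a few shallow libraries, with a score whose lists move apart in Upd.

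AGO1 (chromosome 2R, 13943387 to 13958089, minus strand), the Argonaute of microRNAs, had the smallest adjusted p of the set, in Upd against WT. WT libraries held 113, 52.9 and 124 CPM and Upd libraries 367, 271 and 286 CPM. The lowest Upd library was above the highest library of every other group, and AGO1 rose in Upd by a log2 change of 1.67 ± 0.46 (95% interval 0.72 to 2.62, adjusted p = 0.00675, edgeR). Without WT 2 the change was 1.38 with an adjusted p of 0.0514. Chinmo libraries held 143, 147.5 and 69.8 CPM, and AGO1 was lower there than in Upd (-1.35 ± 0.46, adjusted p = 0.0235). That call was lost without Upd 1 (adjusted p = 0.086) or Upd 3 (0.0534). Ci libraries held 203, 115 and 119.5 CPM and those labelled chinmo RNAi 217, 121 and 186 CPM. Both overlapped WT, with log2 changes of 0.59 and 0.85. Upd against Ci gave 1.08 (adjusted p = 0.0776) and Upd against the group labelled chinmo RNAi 0.82 (adjusted p = 0.177).

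**Figure D3:**
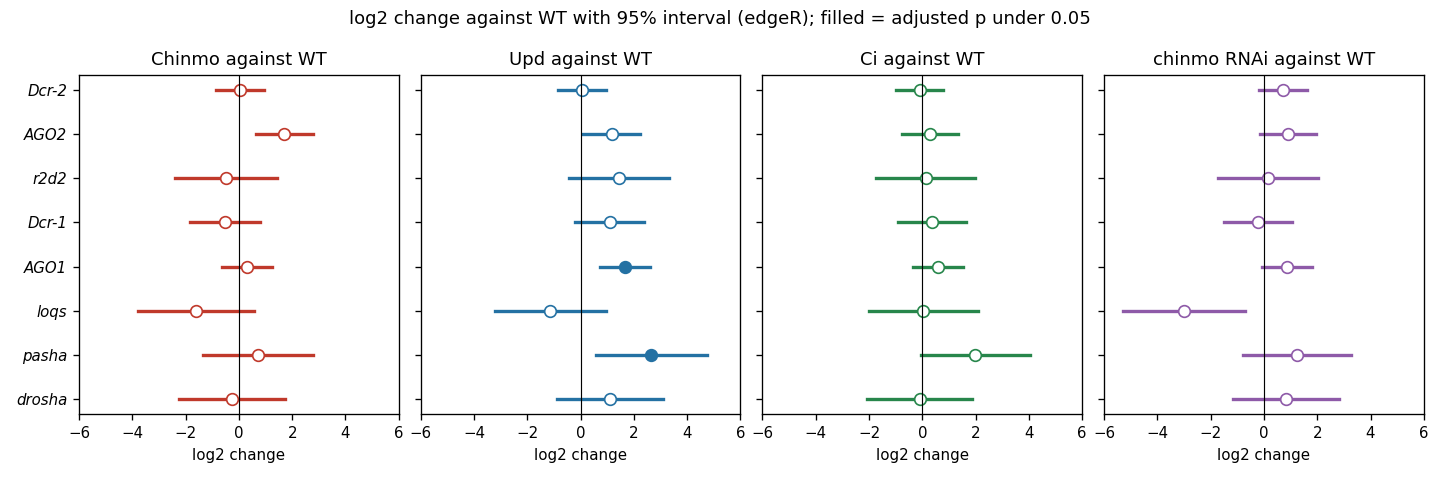
Log2 change of the 8 transcripts against WT in each of the 4 other groups, with 95% intervals from edgeR. Filled points have an adjusted p under 0.05. Only AGO1 (1.67) and pasha (2.66) in Upd are filled.

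Counted over the set, 2 of 8 members (AGO1 and pasha) rose and 0 fell in Upd against WT, where 34.5% of all tested genes were called, 9.22% higher and 25.3% lower. Groups did not overlap for 7 of 8 members, against 67.5% of all tested genes. The median log2 change of the members was 1.13, beside -0.07 for all tested genes. In Chinmo against WT edgeR called 0 of 8, with 1 at an unadjusted p under 0.05, where 2.8% of tested genes were called, and DESeq2 called 1 and limma-voom 0. Groups did not overlap there for 2 members (28.6% of tested genes). In Ci against WT edgeR, DESeq2 and limma-voom called 0 of 8, with 0 at an unadjusted p under 0.05, where edgeR called 0.00994% of tested genes, and groups did not overlap for 1 member (12.2% of tested genes). In the group labelled chinmo RNAi edgeR called 0 of 8, with 1 at an unadjusted p under 0.05, where 6.76% of tested genes were called, and DESeq2 and limma-voom each called 1, loqs. Groups did not overlap for 3 members (36.1% of tested genes). Median log2 changes of the members were -0.11, 0.20 and 0.76 in Chinmo, Ci and the group labelled chinmo RNAi, beside -0.32, 0.01 and -0.06 for all tested genes. The comparisons with WT share the WT libraries.

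Between the manipulated groups, 1 of 8 members (AGO1) was lower in Chinmo than in Upd and 0 were higher, where 38.6% of tested genes were called, 14.4% lower and 24.2% higher. Groups did not overlap for 4 members (44.9% of tested genes), and the median log2 change of the members was -1.35, beside 0.04 for all tested genes. edgeR called 0 of 8 in the other 5 pairs. For Chinmo against Ci, 8.07% of tested genes were called, with no overlap for 2 members (32.1% of tested genes). For Chinmo against the group labelled chinmo RNAi, 3.78% were called, with no overlap for 0 members (15.8%). For Upd against Ci, 29.3% were called, with no overlap for 5 members (64.7%). For Upd against the group labelled chinmo RNAi, 30.2% were called, with no overlap for 5 members (55.5%). For Ci against the group labelled chinmo RNAi, 10.6% were called, with no overlap for 3 members (37.7%). At an unadjusted p under 0.05 these 5 pairs held 1, 0, 1, 1 and 1 members, DESeq2 called 0, 0, 1, 4 and 1, and limma-voom 0, 0, 1, 0 and 1.

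Over all 80 tests of a member in a pair of groups, edgeR called 3, DESeq2 15 and limma-voom 11. When the 5 groups were ordered by mean level for each gene, 0 of the 32 neighbouring pairs passed with edgeR, 0 were under 0.05 unadjusted, 2 passed with DESeq2 and 0 with limma-voom. Neighbours were set by the order of means in these same data, and edgeR takes its spread from all 15 libraries. The lack of calls therefore does not show that neighbours were equal. Some neighbouring groups did not overlap, such as Upd and Ci for Dcr-1, and others did.

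**Figure D4:**
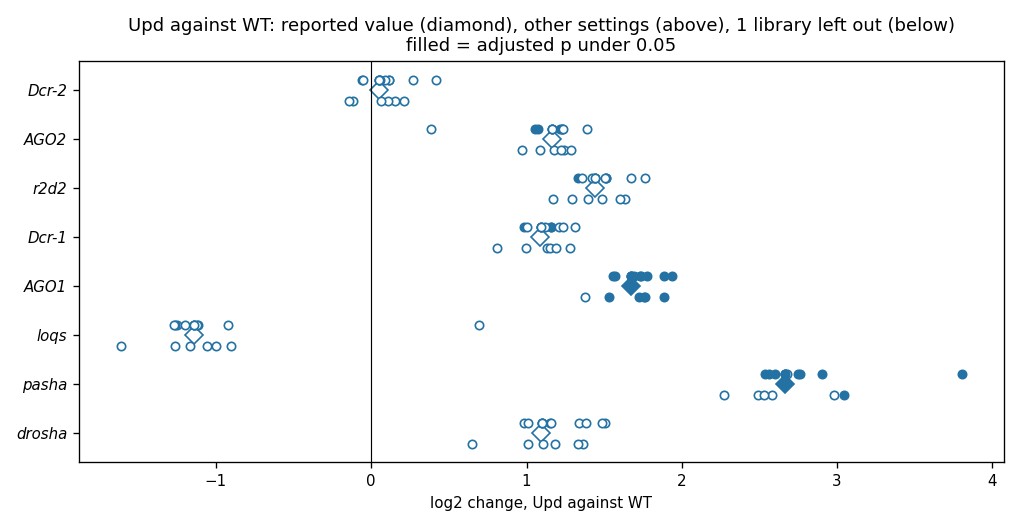
Log2 change of each transcript in Upd against WT under the reported fit (diamond), under other settings (upper row of points) and with 1 library left out (lower row). Filled points have an adjusted p under 0.05. AGO1 keeps its sign and is filled except without WT 2. pasha keeps its sign, and Dcr-2 runs from -0.15 to 0.21 with 1 library left out.

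The balance between the transcripts is given as a description, without a test and without other gene pairs for reference. Dcr-2 made up 44.0 ± 1.92% of the summed CPM per kb of the 8 genes in WT and 26.5 ± 4.52% in Upd, and AGO1 made up 11.0% and 20.6%. The ratio of Dcr-2 to Dcr-1 per length was 8.69, 9.96 and 6.57 in the WT libraries, 5.03, 3.65 and 3.19 in Upd. It was 14.3, 21.7 and 13.2 with the label chinmo RNAi. These 3 groups did not overlap, which was not put to a test. Ci (2.99 to 10.0) and Chinmo (4.22 to 17.7) were wide. The ratio of Dcr-2 to r2d2 was 6.43 to 7.74 in WT, 1.73 to 4.66 in Upd and 8.13 to 13.3 in the group labelled chinmo RNAi. In that group, reads from UAS-dcr2 can enter the Dcr-2 numerator of both ratios and cannot be told apart from endogenous ones. Dcr-2 itself was not called there against WT (adjusted p = 0.341, edgeR).

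The Dicer partners stood in different order in different groups. loqs to r2d2 was 1.09, 1.88 and 1.81 per length in the WT libraries and 0.947 to 1.86 in Ci, but 0.556, 0.15 and 0.174 in Upd. Those labelled chinmo RNAi had 0.176, 0 and 0.328. Every library of the latter 2 groups was under every WT and Ci library. The counts behind the lowest ratios were 0 to 23 for loqs. AGO1 to AGO2 varied less, at 0.493 to 0.76 in WT and 0.717 to 1.09 in Upd, with Chinmo 3 apart at 0.0692. In Chinmo 3, AGO2 made up 80.4% of the summed level and Dcr-2 11.4%, whereas in Chinmo 1 and 2 Dcr-2 made up 43.8% and 49.5%.

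**Figure D5:**
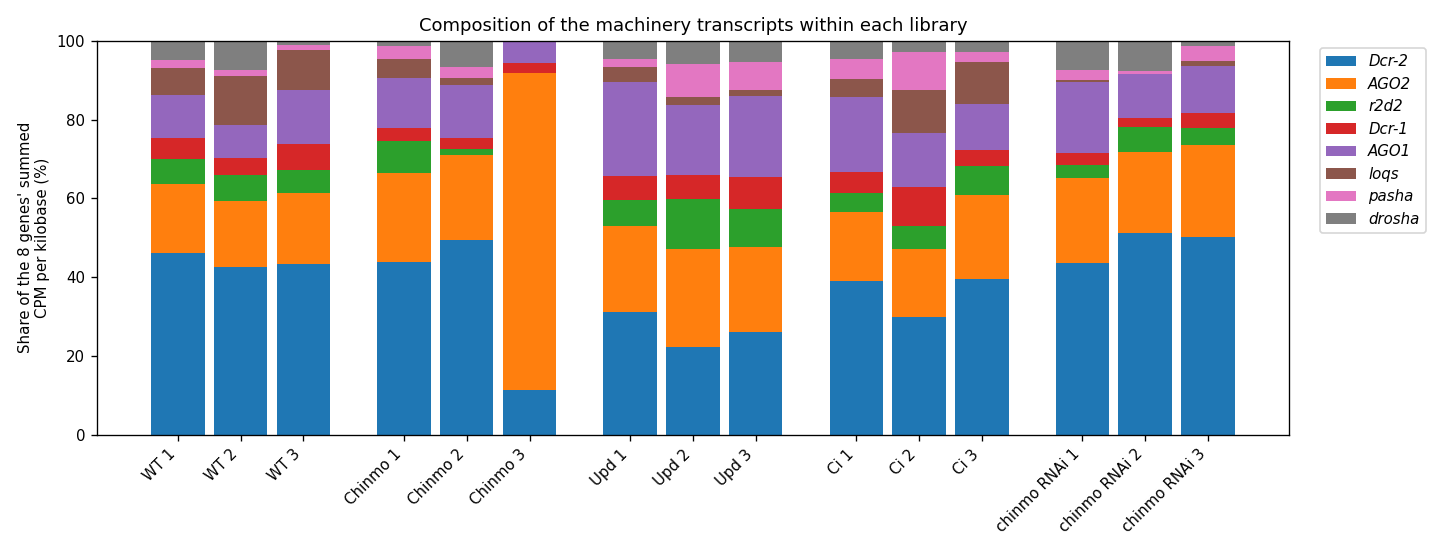
Share of each gene in the summed CPM per kb of the 8 genes (percent, stacked to the whole) in each of the 15 libraries. Dcr-2 takes 42.5 to 46.2% in the WT libraries and 22.2 to 31.2% in Upd, and Chinmo 3 differs from all others in its AGO2 share of 80.4%.

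Other genes of the pathways were read from lists of cofactors and effectors. Of 19 small RNA cofactors, 3 rose and 0 fell in Upd, where 9.22% of all tested genes rose and 25.3% fell. In Chinmo 2 rose and 0 fell, where 2.8% of all tested genes were called, and edgeR called 0 in Ci and 0 in the group labelled chinmo RNAi. Rm62, an RNA helicase, rose in Upd from 248 ± 43.0 to 1076 ± 130 CPM (log2 change 2.12 ± 0.39, adjusted p = 0.000231, edgeR). Ars2, which with the cap-binding complex helps the processing of primary microRNAs, rose to 165 from 55.0 CPM (1.59, adjusted p = 0.0354), and the cap-binding subunit Cbp80 to 86.7 from 22.1 CPM (1.98, adjusted p = 0.0454). Both calls were lost when any 1 Upd library was left out. With the germline score, the mean log2 CPM of germline markers, as a covariate, Ars2 (adjusted p = 0.107, edgeR) and Cbp80 (0.359) were not called, while Rm62 was (0.00372). The score averages lists that move apart in Upd, and was 3.95 to 4.46 there and 4.81 to 5.42 in WT, without overlap. It therefore cannot separate germ line content from the Upd group. In Chinmo the chaperone genes Hop (668 ± 280 against 171 ± 37.3 CPM, adjusted p = 0.0253) and CG16817, the p23 co-chaperone (3051 ± 1810 against 734 ± 72.1 CPM, adjusted p = 0.0217), rose. These co-chaperones act with Hsp90 in loading Argonautes, and Hsp83, which encodes Hsp90, stood at 2780 against 1369 CPM (adjusted p = 0.0767). Both calls were lost when any 1 WT library was left out, with adjusted p up to 0.165. They were also lost with the germline score as a covariate (0.857 and 0.86), and Hop without Chinmo 3 (0.0531). In Chinmo against WT, 0 of all tested genes were called with that covariate or without any 1 WT library. Those losses are therefore not particular to Hop and CG16817. The median log2 change of the cofactors was 0.55 in Upd and 0.57 in Chinmo, beside -0.07 and -0.32 for all tested genes.

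Of 13 genes that carry out microRNA repression and mRNA decay, 3 rose and 1 fell in Upd. Both directions together, this share was near the 34.5% of all tested genes called there, of which 9.22% were higher and 25.3% lower. In Chinmo 1 of the 13 fell, where 2.8% of all tested genes were called. edgeR called 0 in Ci and 0 in the group labelled chinmo RNAi. The decapping genes DCP2 (421 against 164 CPM, log2 change 1.36, adjusted p = 0.0147), Ge-1 (153 against 36.4 CPM, 2.07, adjusted p = 0.00701) and Edc3 (129 against 22.7 CPM, 2.50, adjusted p = 0.00931) rose in Upd. The deadenylase gene twin fell in Upd (81.1 against 275 CPM, -1.76, adjusted p = 0.0051) and in Chinmo (79.4 CPM, -1.78, adjusted p = 0.0479). The median log2 change of this list was 1.21 in Upd and -0.09 in Chinmo, beside the same all-gene medians of -0.07 and -0.32. DCP2 was lost without Upd 1 (adjusted p = 0.0657) or WT 2 (0.0712), and twin in Chinmo without any 1 WT library (at most 0.208). With the germline score as a covariate, twin was not called in Chinmo (adjusted p = 0.898, edgeR). In Chinmo against WT, 0 of all tested genes were called with that covariate or without any 1 WT library. In Upd the covariate removed the calls of twin (log2 change -0.97, adjusted p = 0.142) and Edc3 (0.0849), while Ge-1 (0.00613) and DCP2 (0.0109) kept theirs. The score averages lists that move apart in Upd, and its values there did not overlap those in WT. Calls lost or kept with it therefore do not separate germ line content from the Upd group.

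Hairpin RNAs that feed siRNA production in testis were read from 4 rows, CR18854, pncr009:3L, CR32205 and CR32207, for polyadenylated precursors. These were the only rows found for 12 listed names, some of which were alternatives for the same hairpin. CG4068, CR33940 and CR46342 were not among the rows, so the set is incomplete. edgeR called 0 of 4 in each comparison with WT. Of all tested genes it called 2.8% in Chinmo, 34.5% in Upd, 0.00994% in Ci and 6.76% in the group labelled chinmo RNAi. CR18854 averaged 39.3 ± 6.42 CPM over the Upd libraries, with 9.58 ± 5.81 CPM over WT (log2 change 2.03, adjusted p = 0.0803), and CR32207 at 25.4 against 7.62 CPM (1.73, adjusted p = 0.201). Hairpin copies can share reads, so the split between rows is uncertain. The reported siRNA targets mus308 and ATPsynbeta were not called against WT either, and mus308 averaged 55.1 CPM in Upd, compared with a WT mean of 18.7 CPM (adjusted p = 0.225). The targets were not matched to the 4 hairpin rows. let-7-C was the only primary microRNA row, with means of 0.786 ± 0.780 CPM in Upd libraries and 7.08 ± 2.45 CPM in WT libraries (-3.06, adjusted p = 0.0644).

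The 3 PIWI-class Argonautes, which bind piRNAs, all rose in Upd, where 9.22% of all tested genes were called higher. aub averaged 268 CPM in Upd libraries, with a WT mean of 7.45 CPM (log2 change 5.17), AGO3 at 111 against 9.50 CPM (3.54) and piwi at 1043 against 74.1 CPM (3.82). AGO1 changed by 1.67 and AGO2 by 1.17 in the same comparison. The markers of early germ cells, 9 of 12 of which rose in Upd, moved the same way as aub, piwi and AGO3, and their part in these values was not tested. In the group labelled chinmo RNAi AGO3 fell to 0.902 CPM (adjusted p = 0.0484, edgeR). That call was lost without WT 2, WT 3, chinmo RNAi 1 or chinmo RNAi 2 (adjusted p 0.121 to 0.152) and with the germline score as a covariate (0.685). With the covariate, 2 genes of all tested were called in that comparison, against 680 in the reported fit.

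Finally, each member was set beside the genes whose log2 level was most like its own over the 15 libraries, among 3978 named genes with a mean of at least 10 CPM. For loqs these were Cyt-c1L (Pearson r = 0.959), elfless (0.944) and HEATR2 (0.933), and for AGO2 they were TH1 (0.948), EF2 (0.916) and bsk (0.916). For AGO1 they were Src64B (0.926), DNApol-epsilon255 (0.918) and Mtor (0.913), and for Dcr-2 they were Drak (0.947), Csk (0.926) and RhoGDI (0.926). r2d2 was nearest to Zir (0.951), REG (0.95) and xmas-2 (0.943), and Dcr-1 to SF2 (0.91), ct (0.896) and FLASH (0.885). pasha was nearest to ttm50 (0.936), mRpS23 (0.901) and RhoGAP93B (0.898), and drosha to su(f) (0.915), lark (0.91) and cyp33 (0.909). No member was among the 3 nearest genes of another. Between members the highest r was 0.75, for r2d2 and pasha, and the lowest -0.63, for AGO2 and loqs. All these values share libraries, groups and depth and carry no test.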

How the data were processed

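RNA of sorted testis cells was sequenced from 15 libraries in 5 groups, as labelled. The submitters' processing notes name STAR, HTSeq, Picard, bcl2fastq and DESeq2, with dm6 and BDGP6 as builds, without versions. Whether counting used strand is not given in the sources used here. Raw counts per gene were deposited by the authors, whole numbers with 5 summary lines (reads outside any gene or ambiguous), which were left out of library sizes. Reads outside genes came to 7.01 to 17.0% and ambiguous reads to 13.5 to 26.8% of the table total, summary lines included. The deposited size-factor-scaled table was not used.

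Genes passing filterByExpr (minimum count 10) were scaled by TMM and fitted with edgeR 4.0.16 (R 4.3.3, glmQLFit, robust) on all 15 libraries, 1 mean per group. Two-sided quasi-likelihood F tests were adjusted by Benjamini-Hochberg over 10056 genes, with a threshold of 0.05. The common dispersion was 0.427 (biological coefficient of variation 65.3%). SE and 95% intervals come from the F statistic. The pipeline was tested on simulated data. Levels are CPM after TMM scaling, or per kilobase of merged exons from the BDGP6.54 annotation, which also gave the coordinates. Correlations used log2 CPM with a prior count of 2.

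The 8 genes, the gene lists and the rules for naming genes were chosen with earlier results of these data known. Up to 4 members of a list with the smallest adjusted p were named, and the 3 genes nearest each member. Alternatives were RLE and upper-quartile scaling, other filters, ribosomal RNA genes removed, DESeq2 1.42.0, limma-voom (limma 3.58.1), a replicate block, a germline covariate, fits of 2 groups only and each library left out. Dropping Chinmo 3 and chinmo RNAi 2 together was chosen after seeing the data.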

Additional observations from a re-analysis of the deposited data

How the results depend on the processing

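Few reads limited loqs, r2d2, pasha and drosha, and Chinmo 3 and chinmo RNAi 2 were shallow. Of the log2 changes of the 8 genes in 10 comparisons, 786 of those under other settings kept direction and call, 42 became and 4 ceased to be significant and 47 changed sign, and with 1 library left out the numbers were 425, 7, 8 and 40. The causes were not tested. No member that passed the threshold changed sign. The counts of called members moved as follows. In Chinmo against WT (0), upper-quartile scaling and DESeq2 gave 1, and leaving out 1 library 0 to 1. In Upd against WT (2), the replicate block gave 1 and a fit of the 2 groups 6, DESeq2, limma-voom and the fit without Chinmo 3 and chinmo RNAi 2, chosen after seeing the data, 3, and leaving out 1 library 0 to 2. In the group labelled chinmo RNAi against WT (0), DESeq2, limma-voom and the fit without Chinmo 3 and chinmo RNAi 2 gave 1. In Chinmo against Upd (1), RLE scaling and the fit without these libraries gave 2, DESeq2 4 and limma-voom 5, and no filter, the germline covariate and the fit of 2 groups 0, with 0 to 2 when 1 library was left out. In Chinmo against Ci (0), upper-quartile scaling gave 1, and leaving out 1 library 0 to 1. In Upd against Ci (0), RLE and upper-quartile scaling, DESeq2, limma-voom and the fit without these libraries gave 1 and the fit of 2 groups 2. In Upd against the group labelled chinmo RNAi (0), RLE scaling gave 2, DESeq2 4 and the fit of 2 groups 3. In Ci against that group (0), RLE scaling, DESeq2, limma-voom and the fit without these libraries gave 1.

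The following log2 changes changed sign. Under RLE scaling, Dcr-2 was -0.24 in Chinmo against WT and -0.21 in Chinmo against Ci, r2d2 -0.14 in the group labelled chinmo RNAi against WT, and in Ci against that group r2d2 was 0.37 and AGO1 0.059. Under DESeq2 these were -0.23, -0.20, -0.14, 0.37 and 0.059. RLE scaling moved the median of all genes from -0.32 to -0.61 in Chinmo against WT, from -0.06 to -0.34 in the group labelled chinmo RNAi against WT and from 0.10 to 0.47 in Ci against that group. The germline covariate averages marker lists that move apart in Upd, so it does not test the early germ line there. With it, Chinmo against WT gave loqs 1.28 and drosha 0.28, Upd against WT loqs 0.70, Ci against WT loqs -0.39, and the group labelled chinmo RNAi against WT AGO2 -0.34 and Dcr-1 0.01. It gave Dcr-2 0.20, AGO2 -0.35 and loqs 0.58 in Chinmo against Upd. In Chinmo against Ci it gave AGO2 -0.43, AGO1 0.21, loqs 1.67, pasha 0.59 and drosha 0.41. In Upd against Ci it gave AGO2 -0.074 and loqs 1.08, in Upd against the group labelled chinmo RNAi drosha -0.002, and in Ci against that group AGO2 0.81, loqs -0.33 and pasha -1.16. limma-voom gave pasha -0.024 in Chinmo against WT, drosha 0.056 in Ci against WT, and Dcr-2 0.001 and AGO2 -0.019 in Chinmo against Upd. Without Chinmo 3 and chinmo RNAi 2, drosha was 0.027 in Chinmo against WT and 0.055 in Chinmo against Ci, Dcr-2 -0.051 in Upd against WT, -0.04 in Upd against Ci and 0.23 in Chinmo against Upd, AGO2 -0.65 in Chinmo against Upd and -0.47 in Chinmo against the group labelled chinmo RNAi, and r2d2 -0.13 in that group against WT and 0.36 in Ci against it. In fits of 2 groups, Dcr-2 was -0.06 in Upd against WT, 0.051 in Chinmo against Upd and -0.10 in Upd against Ci.

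With 1 library left out, ranges that crossed 0 were -0.27 to 0.18 for Dcr-2 and -1.99 to 0.055 for drosha in Chinmo against WT, and -0.15 to 0.21 for Dcr-2 in Upd against WT. In Ci against WT they were -0.29 to 0.10 for Dcr-2, -0.071 to 0.32 for r2d2, -0.19 to 0.31 for loqs and -0.53 to 0.18 for drosha. In the group labelled chinmo RNAi against WT they were -0.01 to 0.35 for r2d2 and -0.61 to 0.032 for Dcr-1. In Chinmo against Upd they were -0.32 to 0.23 for Dcr-2 and -0.65 to 0.88 for AGO2, and in Chinmo against Ci -0.18 to 0.27 for Dcr-2, -0.51 to 0.043 for AGO1 and -1.90 to 0.24 for drosha. In Chinmo against the group labelled chinmo RNAi they were -0.30 to 1.15 for AGO2, -0.55 to 0.09 for Dcr-1 and -0.95 to 0.26 for pasha. They were -0.046 to 0.28 for Dcr-2 in Upd against Ci, -0.14 to 0.61 for drosha in Upd against the group labelled chinmo RNAi and -0.23 to 0.19 for r2d2 in Ci against that group.

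The reported fit did not use the replicate numbers as pairs. Of 30 same-numbered pairs, 2 had a correlation of deviations over 0.1 (range -0.081 to 0.295), Ci 1 with WT 1 (0.295) and Ci 2 with WT 2 (0.103). Pairs with different numbers were not computed for reference, so this check cannot decide whether the numbers pair the samples. With the replicate block, pasha in Upd against WT was 2.68 (adjusted p = 0.0713, edgeR), and drosha in Ci against WT was 0.25. The count of all genes called in Chinmo against WT was 282 in the reported fit, 11 with the block, 0 with the germline covariate, 1 in a fit of 2 groups, 662 under upper-quartile scaling, 814 with no filter, 837 by limma-voom and 1585 by DESeq2, and 0 without any 1 WT library. In the group labelled chinmo RNAi against WT it was 680 in the reported fit, 2 with the germline covariate and 358 with the block, and 1062 to 1678 with no filter, by DESeq2, by limma-voom, in a fit of 2 groups or without the shallow libraries. In Upd against WT it was 3473 and rose to 5350 in a fit of 2 groups. By longest transcript in place of merged exons, 2 members changed places in the order of levels in Ci.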
